A study of Equus caballus with 8 samples.

Results

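The genes described here are transcription factors that shape the uterus and its glands: the homeobox genes MSX1, MSX2, HOXA9, HOXA10, HOXA11, HOXA13, HOXD10 and EMX2, the SOX factor SOX17 and the forkhead factor FOXA2. They were taken as a list of 10 symbols and matched to NCBI Gene IDs, and 9 of them were found among the 24942 Gene IDs of the count table. HOXA13 had no matching Gene ID there, so it was not analysed here. All 9 passed the filter on low counts and so belong to the 15342 genes tested.

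Endometrial biopsies came from 4 cycling Bavarian Warmblood mares, each sampled once while pregnant and once while cycling, always at Day 12, which makes 4 pregnant and 4 cyclic libraries in 4 pairs. The biopsies were taken through the cervix after the uterus had been flushed, and pregnancy was recognised by ultrasound before flushing. In both groups ovulation followed 1500 IU of human chorionic gonadotropin, and the labels describe insemination for all mares without a separate statement for the control cycle. No ages, genotypes or progesterone values are given for the groups. A biopsy is a mixture of luminal and glandular epithelium, stroma, vessels and immune cells, so a lower value in these bulk samples may mean fewer cells of a type or less RNA per cell, and these cannot be told apart.

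HOX proteins bind DNA through a homeodomain and give each stretch of the embryonic Müllerian duct its identity, with HOXA9, HOXA10, HOXA11 and HOXA13 used in order from oviduct to vagina. In the adult uterus HOXA10 and HOXA11 act mainly in the stroma, follow steroid hormones and are needed for implantation in mice. MSX1 and MSX2 are homeobox repressors that, in mice, keep the uterus receptive and fall as implantation begins. SOX17 acts in the uterine epithelium upstream of Indian hedgehog (IHH), and FOXA2 is a factor of uterine glands required for their formation and secretion.

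Total counts per library were 15.5 to 16.7 M in 7 libraries and 9.81 M in the pregnant library of mare 1. Levels are counts per 1000000 counts (CPM) on library sizes adjusted with TMM factors, which balance the libraries over most genes, and they are compared between libraries for the same gene, not between genes, since transcript lengths were not used. The words rose, fell and changed are kept for genes where its adjusted p in edgeR's quasi-likelihood test, with the mare as a block and Benjamini-Hochberg adjustment over all 15342 genes, was below 0.05. Defining genes of endometrium were present in every library: EPCAM of epithelium had 466 to 568 CPM, VIM of stroma 352 to 640 CPM, and P19, the uterocalin secreted by equine glands, at least 32828 CPM. KRT8 of epithelium had no matching Gene ID.

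Of the 9 factors, 3 rose in pregnancy, namely EMX2, HOXA10 and HOXA11, and 0 fell, where 16.7% of all genes tested changed, 8.53% rising and 8.19% falling. At an unadjusted p under 0.05, 5 were higher and 1 lower in edgeR's test. DESeq2 called 2 higher and 1 lower, and limma-voom called 3 higher and 1 lower. The median log2 fold change of the 9 was 0.37, beside 0.00 over all genes tested. Across mares, 4 of the 9 were higher in pregnancy in every mare and 2 were lower in every mare, as were 19.2% and 19.6% of all genes tested. With mare 1 left out, the one with the shallow library, 1 factor rose, and the same number rose without mare 3. The factor that remained in both cases was EMX2.

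**Figure D1:**
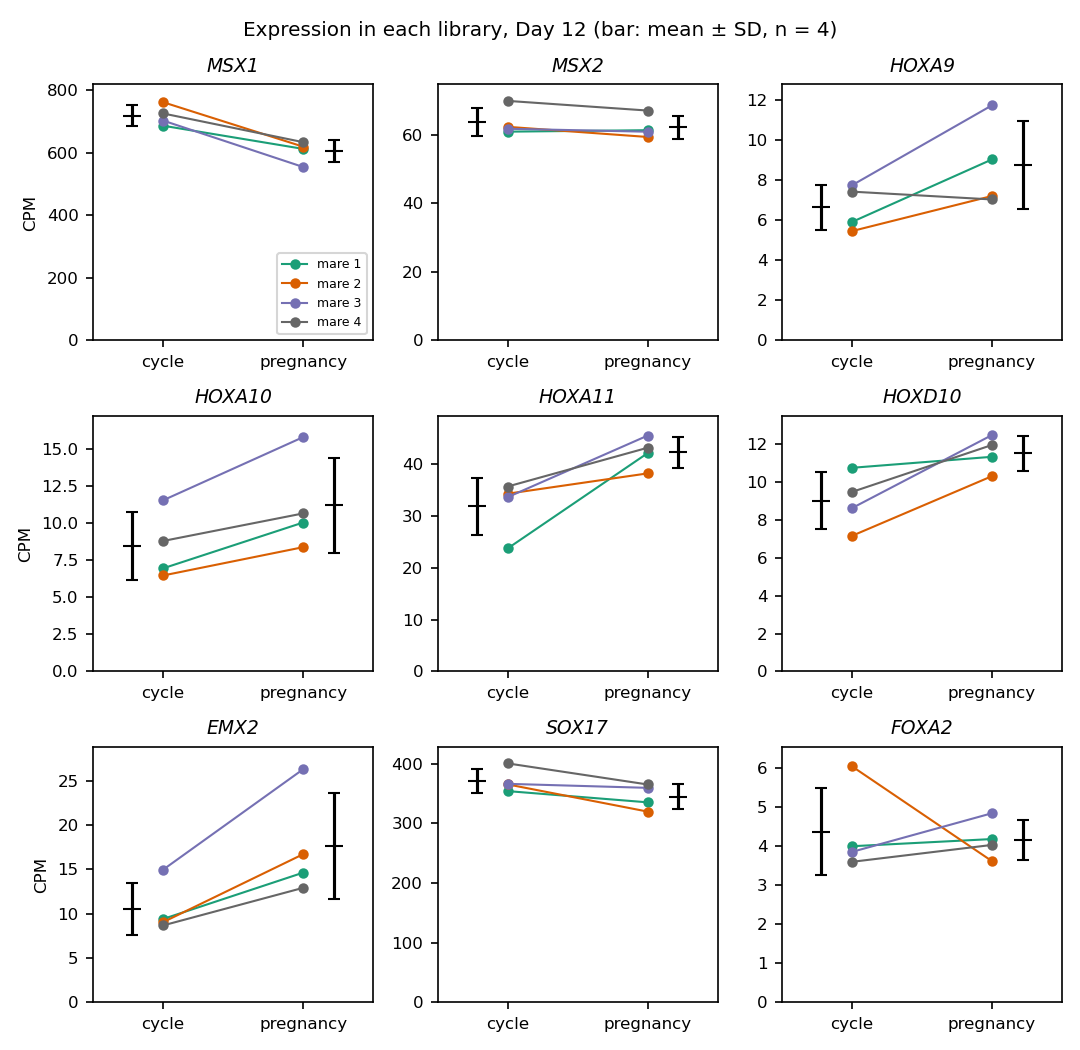
Level of each transcription factor (CPM, vertical axes starting at 0) in the cyclic and pregnant library of each mare, joined by a line, with the mean ± SD of 4 libraries beside the points. EMX2, HOXA10, HOXA11 and HOXD10 lines go up in each of 4 mares, MSX1 and SOX17 lines go down in each, and mare 3 is highest in both states for EMX2, HOXA9 and HOXA10.

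EMX2 is a homeobox gene of the urogenital tract that is known in human endometrium as a target repressed by HOXA10. Its level in mares 1 to 4 was 9.40, 9.05, 15.0 and 8.68 CPM in cyclic and 14.6, 16.7, 26.3 and 12.9 CPM in pregnant libraries. Every mare was higher in pregnancy, but the groups overlapped, because the cyclic value of mare 3 exceeded the pregnant values of mares 1 and 4. EMX2 rose from 10.5 ± 2.97 to 17.6 ± 5.97 CPM (SD, n = 4), which is 0.73 ± 0.10 on the log2 scale (SE; edgeR's quasi-likelihood test, adjusted p = 0.00196). Within mares the log2 ratio ran from 0.57 to 0.87. In the test without the mare block EMX2 had adjusted p = 0.159, and in each of the other 11 alternatives it passed.

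HOXA11, a gene of the posterior HOXA cluster expressed in uterine stroma, stood at 23.7, 34.2, 33.6 and 35.6 CPM in the cyclic libraries of mares 1 to 4 and at 42.1, 38.2, 45.4 and 43.1 CPM in the pregnant ones. The 4 pregnant values all lay above the 4 cyclic values, as was the case for 6.00% of all genes tested. HOXA11 rose by a log2 fold change of 0.42 ± 0.11 (adjusted p = 0.0281 in edgeR's test), and the size rested in part on mare 1, whose cyclic library was the lowest of all. Its log2 ratio was 0.82 in mare 1 and 0.16 to 0.43 in the other mares. Without mare 1 the log2 fold change of HOXA11 was 0.29 with adjusted p = 0.118, and adjusted p was 0.0910 without mare 3 and 0.140 without the mare block.

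HOXA10 is the neighbour of HOXA11 in the cluster and the HOX gene most studied in endometrial receptivity. It had 6.95, 6.47, 11.5 and 8.80 CPM in cyclic and 10.0, 8.38, 15.8 and 10.7 CPM in pregnant libraries, in mares 1 to 4. Mare 3 was the highest and mare 2 the lowest in both states, so the groups overlapped although each mare was higher in pregnancy. HOXA10 rose by a log2 fold change of 0.41 ± 0.11 (adjusted p = 0.0330 in edgeR's test), with log2 ratios of 0.27 to 0.52 within mares. These values rest on 101 to 281 counts per library. In 6 of 12 alternatives the call was lost: without any 1 mare adjusted p was 0.0620 to 0.140, in DESeq2 it was 0.119, and without the mare block it was 0.411, while the log2 fold change stayed between 0.37 and 0.45. Another gene, LOC138923779, overlaps HOXA10 in the RefSeq table, and its Gene ID was not among those counted. Without strand information its reads cannot be told apart from those of HOXA10.

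The related HOXA9 and HOXD10 did not pass. HOXA9, which marks the oviduct end of the HOXA series in the embryo, had 5.92, 5.47, 7.76 and 7.44 CPM in cyclic and 9.05, 7.22, 11.8 and 7.05 CPM in pregnant libraries. It was higher in 3 of 4 mares and slightly lower in mare 4 (log2 ratio -0.08). Its log2 fold change was 0.38 ± 0.15 (adjusted p = 0.118 in edgeR's test), and without mare 4 it was 0.54 with adjusted p = 0.0493. HOXD10, a gene of the HOXD cluster, had 10.8, 7.16, 8.63 and 9.48 CPM in cyclic and 11.3, 10.3, 12.5 and 12.0 CPM in pregnant libraries. HOXD10 was higher in 4 of 4 mares, by as little as 0.07 on the log2 scale in mare 1, with a log2 fold change of 0.37 ± 0.12 (adjusted p = 0.0648 in edgeR's test). It passed with library totals in place of TMM factors (adjusted p = 0.0430). In the RefSeq table the span of HOXD9 overlaps that of HOXD10, so reads may be divided between the pair.

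**Figure D2:**
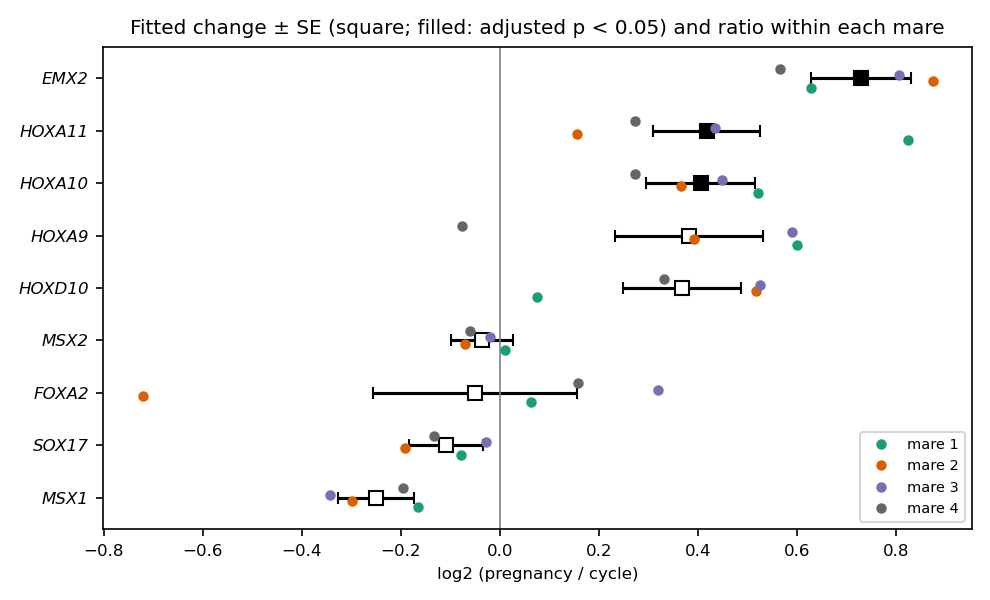
Fitted log2 fold change of pregnancy over cycle with its SE (squares, filled where the adjusted p was below 0.05) and the log2 ratio within each of the 4 mares (circles), for the 9 factors tested. The filled squares are EMX2 at 0.73, HOXA11 at 0.42 and HOXA10 at 0.41, and the 4 ratios of FOXA2 spread from -0.72 to 0.32.

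MSX1 was the factor with the largest shift in the other direction. Its cyclic libraries held 687, 762, 703 and 726 CPM in mares 1 to 4, and its pregnant libraries 612, 620, 555 and 634 CPM. All pregnant values lay below all cyclic values, which 4.73% of genes tested showed. The mean was 719 ± 32.6 CPM in cyclic and 605 ± 34.9 CPM in pregnant libraries (SD, n = 4), a log2 fold change of -0.25 ± 0.08 that just missed the threshold (adjusted p = 0.0555 in edgeR's test). It passed with median-of-ratios size factors (0.0492), in limma-voom (0.0450) and in DESeq2 (adjusted p = 0.00489), so the call depends on the tool and the scaling, while the log2 fold change stayed between -0.28 and -0.21 in all 12 alternatives.

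MSX2, the close relative that can stand in for MSX1 in the mouse uterus, showed no such shift. It had 60.9, 62.3, 61.8 and 69.9 CPM in cyclic and 61.3, 59.4, 60.9 and 67.1 CPM in pregnant libraries. The groups overlapped almost fully, with mare 4 highest in both, and the log2 fold change was -0.04 ± 0.06 (adjusted p = 0.752 in edgeR's test). Within a library the ratio of MSX1 to MSX2 counts needs no scaling. It went from 11.3, 12.2, 11.4 and 10.4 in the cyclic libraries to 9.98, 10.4, 9.11 and 9.45 in the pregnant ones, lower in 4 of 4 mares. The exact permutation test over 4 pairs (two-sided) gave p = 0.125, which is the smallest that 4 pairs allow, and adjusted p = 0.292 over 7 such ratios chosen after the values were seen.

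SOX17 is an HMG-box factor of uterine epithelium that is also made by arterial endothelium. Its level was 354, 365, 366 and 401 CPM in cyclic and 335, 320, 360 and 365 CPM in pregnant libraries. It was lower in 4 of 4 mares, but the groups overlapped and the log2 fold change was only -0.11 ± 0.07 (adjusted p = 0.368 in edgeR's test, 0.329 to 0.648 over its 12 alternatives). IHH, the hedgehog ligand downstream of SOX17 in mouse uterus, went in the same mares from 818, 1072, 1092 and 1413 CPM to 498, 506, 490 and 780 CPM. IHH fell in pregnancy by 0.95 on the log2 scale (SE 0.10), with no overlap between the groups. The difference between the changes of SOX17 and IHH was not tested.

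FOXA2 was measured with few reads, 42 to 96 counts per library. It had 3.99, 6.03, 3.85 and 3.59 CPM in cyclic and 4.18, 3.61, 4.84 and 4.03 CPM in pregnant libraries. Apart from the cyclic library of mare 2 the values of both groups lay together between 3.59 and 4.84 CPM, and the log2 fold change was -0.05 ± 0.21 (adjusted p = 0.903 in edgeR's test). Without mare 2 the log2 fold change of FOXA2 was 0.18, still far from the threshold (adjusted p = 0.606). Of the related forkhead genes FOXA1 and FOXA3, looked at for this reason after their values were seen, FOXA1 had 4 counts in all 8 libraries together and was not tested, and FOXA3 had 1.85 ± 0.548 and 1.91 ± 0.379 CPM in the cycle and in pregnancy (adjusted p = 0.911 in edgeR's test).

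The same model also asked which factors differed between the 4 mares whatever the state. HOXA10 (adjusted p = 0.0176) and EMX2 (0.00914) did in edgeR's quasi-likelihood test of the 3 mare terms, 2 of 9 beside 15.9% of all genes tested. The mean of the cyclic and pregnant value of EMX2 was 20.6 CPM in mare 3 and 10.8 CPM in mare 4, a ratio of 1.91. For HOXA10 it was 13.7 CPM in mare 3 and 7.43 CPM in mare 2, a ratio of 1.84. Both results rest on mare 3, since without it adjusted p was 0.530 for EMX2 and 0.275 for HOXA10. MSX1, MSX2 and SOX17 were the steadiest, with a highest to lowest ratio between mares of 1.10 to 1.13 (adjusted p of 0.359 to 0.693 in edgeR's test).

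The other HOX genes give the setting of these changes. From the 34 remaining genes of the 4 clusters, 28 matched a Gene ID and 17 were tested. Of these, 2 rose and 0 fell in edgeR's test, which is 11.8%. For this list and those below, 16.7% of all genes tested changed, 8.53% rising and 8.19% falling. At an unadjusted p under 0.05 there were 2 higher and 3 lower among the 17. DESeq2 and limma-voom also called 2 higher and 0 lower. HOXD8 had 3.41, 4.15, 3.72 and 3.90 CPM in cyclic and 6.56, 6.90, 7.09 and 5.68 CPM in pregnant libraries. These groups did not overlap, and the log2 fold change was 0.78 ± 0.15 (adjusted p = 0.00841). HOXD9 was at 9.86 ± 2.32 CPM in cyclic and 15.8 ± 2.77 CPM in pregnant libraries, higher in 3 of 4 mares, and passed narrowly (log2 fold change 0.69 ± 0.19, adjusted p = 0.0494). Without mare 1 adjusted p was 0.0505 for HOXD8 and 0.159 for HOXD9, and the call of HOXD9 was also lost without mare 2 or 3, without the block, without the low-count filter and with median-of-ratios factors (0.0530 to 0.191 over these).

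Set out along the clusters, the changes were uneven. The 6 tested genes numbered 8 to 11 in the HOXA and HOXD clusters all had log2 fold changes above 0. This range was picked after the values were seen. The changes ran from 0.37 for HOXD10 to 0.78 for HOXD8, and 4 of the 6 rose, beside 8.53% of all genes tested. HOXD9 and HOXD10 overlap, so they may not be separate measurements. The 6 genes stayed above 0 in every alternative, with other scalings included. The 11 tested genes numbered 1 to 7 in the HOXA and HOXB clusters had log2 fold changes from -0.34 to 0.17 and 4 of them lay above 0. This is no clean split by number. Low-numbered genes of the other clusters also had estimates above 0 (HOXD4 0.28, HOXC4 0.77 and HOXC6 0.51), as did HOXD13 (0.38), with none of them called. These genes were measured with few reads, at group means of 0.49 to 2.58 CPM and with SE of 0.26 to 0.35. All 5 tested HOXD genes lay above 0. Without mare 1, 0 of the 21 tested HOX genes passed in edgeR's test (6 higher and 1 lower at an unadjusted p under 0.05), and without mare 3 only 1 did.

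**Figure D3:**
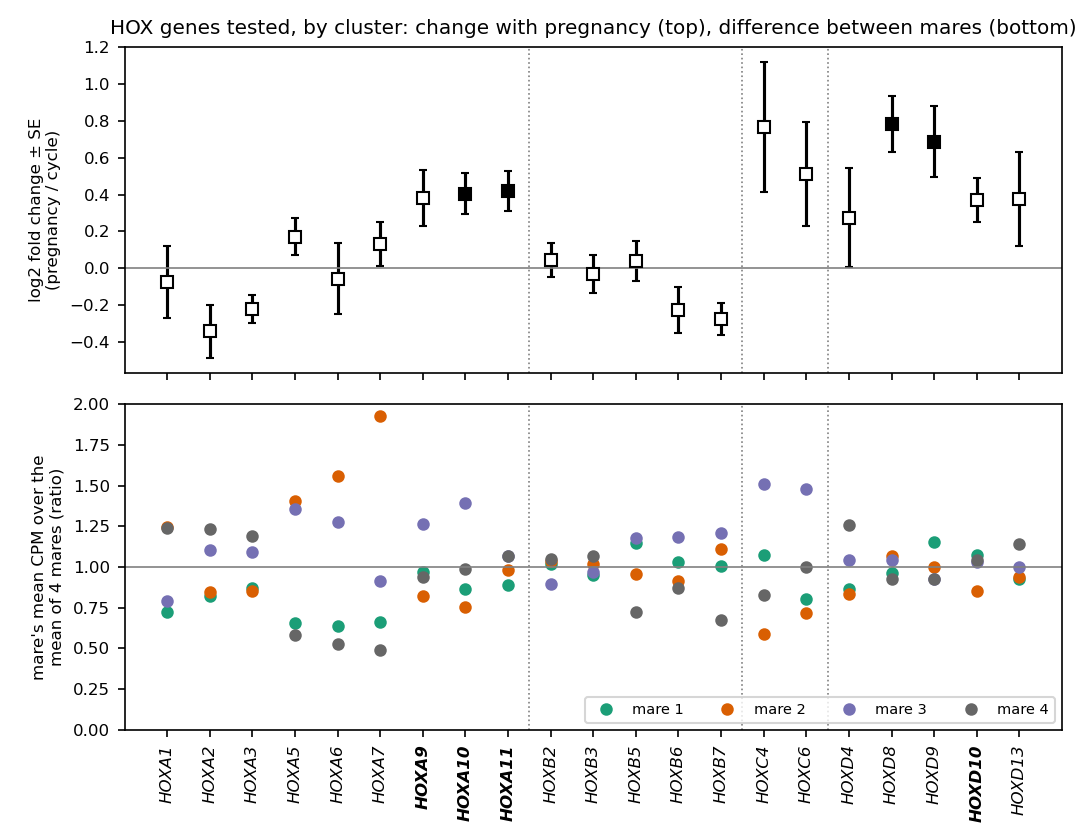
The 21 tested HOX genes in order along clusters A, B, C and D (dotted lines separate clusters, bold names are the genes of the list). Top, log2 fold change of pregnancy over cycle ± SE, filled where the adjusted p was below 0.05; bottom, each mare's mean CPM over the mean of the 4 mares, where HOXA5, HOXA6 and HOXA7 spread most among genes of the HOXA cluster.

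Differences between mares were also unevenly spread over the clusters. Of the 21 tested HOX genes 7 differed between mares, beside 15.9% of all genes tested. They were 5 of 9 in the HOXA cluster and 2 of 5 in the HOXB cluster, with 0 of 2 in HOXC and 0 of 5 in HOXD. The spread over clusters was not tested. HOXA7, which was named after its values were seen, had 9.98, 24.4, 12.5 and 7.62 CPM in cyclic and 9.55, 32.5, 14.6 and 6.93 CPM in pregnant libraries. Mare 2 was thus highest for HOXA7 in both states, while the same mare was lowest for HOXA9 and HOXA10 in the mean of its libraries. HOXA7 had a highest to lowest ratio of 3.91 between mares (adjusted p = 5.90e-04 for the mare terms in edgeR's test) and no called change with pregnancy (log2 fold change 0.13 ± 0.12, adjusted p = 0.495). In the mean of both states HOXA5 and HOXA6 also ran from mare 2 at the top to mare 4 at the bottom, with ratios of 2.40 and 2.96.

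Among 9 tested SOX genes besides SOX17, 1 rose and 1 fell, which is 22.2% beside 16.7% of all genes tested. SOX13 had 88.8 ± 11.2 CPM in cyclic and 124 ± 12.5 CPM in pregnant libraries (log2 fold change 0.48 ± 0.11), and SOX12 had 42.6 ± 6.96 and 35.1 ± 4.56 CPM (-0.28 ± 0.07). Their adjusted p in edgeR's test was 0.0188 and 0.0254. Both calls were lost without mare 1 (0.0630 and 0.119) and without the block (0.0594 and 0.321), and that of SOX12 also without mare 2 or 4 and with library totals (0.0572 to 0.0865). Of 20 tested forkhead genes other than FOXA2, 4 rose and 2 fell. FOXO1, a partner of the progesterone receptor in decidual stroma, rose from 191 ± 8.62 to 262 ± 51.1 CPM. FOXS1, a forkhead gene of pericytes, rose from 15.0 ± 3.90 to 23.4 ± 0.675 CPM. FOXO3, a factor of stress and survival, fell from 119 ± 14.0 to 89.4 ± 9.63 CPM, and FOXM1, which drives mitotic genes, fell from 4.38 ± 0.474 to 2.37 ± 0.452 CPM. Without mare 1 these 4 had adjusted p of 0.0508 to 0.103, and without the mare block 0.0586 to 0.111, where 0 of the 20 forkhead genes passed (3 higher and 2 lower at an unadjusted p under 0.05). FOXO1 also lost its call without mare 3 or 4 (0.0571 and 0.0646), and FOXM1 without mare 2 or 3 (0.0569 and 0.0538). With each mare left out in turn, 1 to 3 of the 20 passed.

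Of 29 other transcription factors of the reproductive tract that were tested, 9 rose and 2 fell, with a median log2 fold change of 0.23, and 2 rose and 0 fell without the mare block (11 higher and 2 lower at an unadjusted p under 0.05). The list had 5 higher and 0 lower without mare 1 (11 and 3 at an unadjusted p under 0.05), 4 and 1 without mare 2, and 6 and 1 without mare 3. KLF5, a zinc finger factor of epithelium, rose from 152 ± 24.9 to 250 ± 32.8 CPM (log2 fold change 0.72 ± 0.07). The T-box repressors TBX2 and TBX3 rose by log2 fold changes of 0.64 ± 0.09 and 0.57 ± 0.09, and the orphan receptor NR2F1 by 0.55 ± 0.09. TBX2 and KLF5 passed in all 12 alternatives, and TBX3 and NR2F1 in all but the one without the mare block (adjusted p = 0.119 and 0.0877). PAX2 and PAX8, Müllerian duct factors of the epithelium, were looked at after their values were seen and did not pass: PAX2 had 184 ± 24.9 and 178 ± 18.7 CPM and PAX8 had 224 ± 35.0 and 212 ± 19.5 CPM (adjusted p = 0.725 and 0.627 in edgeR's test).

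In the axis that runs in mouse uterus from the progesterone receptor through IHH to the stroma, 2 of 26 tested genes rose and 8 fell, with a median log2 fold change of -0.15. Without mare 1 the list had 6 calls in place of 10. Without the mare block 0 rose and 2 fell (3 higher and 8 lower at an unadjusted p under 0.05). PGR, the progesterone receptor, did not pass (41.0, 32.7, 26.9 and 43.4 CPM in cyclic and 24.7, 38.0, 24.4 and 25.2 CPM in pregnant libraries). It was lower in 3 of 4 mares and higher in mare 2, and without mare 2 it had adjusted p = 0.0386. ESR1, the oestrogen receptor alpha, was lower in 4 of 4 mares, at 324, 230, 210 and 385 CPM in cyclic and 208, 176, 145 and 188 CPM in pregnant libraries, and fell by 0.65 on the log2 scale (SE 0.11). HHIP, a hedgehog-binding antagonist, fell by 1.02 on the log2 scale (SE 0.15) and NCOA2, a steroid receptor coactivator, by 0.39 (SE 0.06). ESR1 and NCOA2 lost their calls without the block (adjusted p = 0.103 and 0.0951). The 2 that rose, NR2F2 (log2 fold change 0.46 ± 0.10) and HAND2 (0.47 ± 0.14), are stromal factors that lie downstream of IHH or progesterone in mice and were named after their values were seen. Both lost their calls without mare 1 and without mare 2.

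BMP and Wnt signals are regulated by MSX factors and in turn control them in many tissues. Of 26 tested genes of these pathways 2 rose and 6 fell, with a median log2 fold change of -0.02. Both rises were lost without mare 1, where 5 fell, and without mare 3, where 6 fell. LEF1, a nuclear effector of Wnt signalling, fell by 0.59 on the log2 scale (SE 0.06). The BMP receptor genes BMPR2 (-0.69 ± 0.12), BMPR1A (-0.36 ± 0.08) and BMPR1B (-0.53 ± 0.11) fell as well. Each of these 4 lost its call without the mare block (adjusted p of 0.0842 to 0.172), where 0 of the 26 passed (3 higher and 5 lower at an unadjusted p under 0.05), and BMPR1B also without mare 2 (0.0559).

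Genes discussed elsewhere as targets of HOXA10 formed a list of 8, which includes EMX2. All 8 were tested, 4 rose and 1 fell, where 16.7% of all genes tested changed. The list sets no direction: EMX2, described above as repressed by HOXA10, rose along with it. ITGB3, named after its values were seen, did not pass (log2 fold change 0.28 ± 0.16, adjusted p = 0.275 in edgeR's test). The part of HOXA10 in these values was not tested. TGM2, a transglutaminase, went from 23.9 ± 3.70 to 48.7 ± 18.2 CPM and PTGER4, a receptor of prostaglandin E2, from 6.26 ± 1.07 to 14.2 ± 3.77 CPM. IGFBP1, an insulin-like growth factor binding protein, and EMX2 were the other genes that rose. IGFBP1 was near 0 in the cyclic libraries (0.26, 0, 0.12 and 0.06 CPM in mares 1 to 4). It had 6.76, 0.97, 2.53 and 10.7 CPM in the pregnant ones, so it passed the low-count filter through the pregnant group alone. FKBP4, a chaperone of the progesterone receptor named after its values were seen, was the gene that fell (log2 fold change -0.32 ± 0.08, adjusted p = 0.0233), and its call was lost without mare 1 or 4, with library totals and without the mare block. Without the mare block 2 of the 8 rose and TGM2 had adjusted p = 0.0594. Of 23 tested genes of gland secretion and function, 6 rose and 1 fell, with a median log2 fold change of 0.02, and without the block 2 rose. AGR2, a protein disulphide isomerase of secretory cells, rose from 55.2 ± 3.96 to 106 ± 11.5 CPM in all 4 mares. LCN2 and STC1 rose by log2 fold changes of 1.83 ± 0.13 and 1.55 ± 0.15. CTSL was the gene that fell (-1.42 ± 0.08). STC1 and CTSL lost their calls without the mare block (adjusted p = 0.0758 and 0.364 in edgeR's test). LIF, the cytokine that depends on FOXA2 in mouse glands, had 1.54 ± 1.22 and 1.40 ± 0.419 CPM (adjusted p = 0.960 in edgeR's test, named after its value was seen).

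Some markers of the cell types in a biopsy also changed in pregnancy. Of 19 stroma markers tested 12 rose and 1 fell, with a summed level of 4369 to 5834 CPM in cyclic and 5177 to 6048 CPM in pregnant libraries. The median log2 ratio of the stroma markers in mares 1 to 4 was 0.64, 0.36, 0.49 and 0.37. HOXA10 had 0.52, 0.37, 0.45 and 0.27, HOXA11 0.82, 0.16, 0.43 and 0.27, and EMX2 0.63, 0.87, 0.81 and 0.57. The summed level of the stroma markers was lower in pregnancy in mares 2 and 4, opposite in sign to their median. Without the mare block 3 stroma markers rose. Of 14 smooth muscle and pericyte markers 8 rose and 0 fell (summed level 571 to 887 and 864 to 1280 CPM), and of 22 endothelium markers 18 rose and 0 fell (1037 to 1692 and 1652 to 2242 CPM). No marker of either list was lower at an unadjusted p under 0.05 in edgeR's test, and DESeq2 and limma-voom called 0 lower in both. The part of these shifts in the rises of HOXA10, HOXA11 and EMX2 was not tested.

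Epithelium markers, which stand beside MSX1 and SOX17, had a summed level of 3076 to 3671 CPM in cyclic and 2960 to 3268 CPM in pregnant libraries, and 1 of 20 rose and 5 fell. Without the mare block 0 of these passed (3 higher and 2 lower at an unadjusted p under 0.05), and without mare 1 there were 1 higher and 2 lower. Their median log2 ratio in mares 1 to 4 was 0.04, -0.11, -0.12 and -0.04, beside -0.16, -0.30, -0.34 and -0.19 for MSX1. MSX1 lay below the marker median in each of the 4 mares. Mares 2 and 3 were the lower ones for both, but the order of 4 mares cannot show a link. SOX17 had log2 ratios of -0.08, -0.19, -0.03 and -0.13 in mares 1 to 4, with mare 3 the least lowered. SOX17 is also made by arterial endothelium, and 18 of 22 endothelium markers rose. Of 15 ciliated cell markers 1 rose and 0 fell (245 to 556 and 288 to 501 CPM), of 18 T and NK cell markers 6 rose and 0 fell (100 to 159 and 120 to 186 CPM), and of 14 macrophage and dendritic cell markers 1 rose and 0 fell (205 to 307 and 243 to 317 CPM). The T and NK cell count was 3 in DESeq2, 2 without mare 1 and 0 without the mare block (7 higher and 0 lower at an unadjusted p under 0.05). In these 3 lists 0 were lower at an unadjusted p under 0.05 in edgeR's test and by DESeq2 and limma-voom. No marker that matched a Gene ID was at 0 in every library. The part of these markers, or of the endothelium markers, in the values of MSX1 and SOX17 was not tested.

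**Figure D4:**
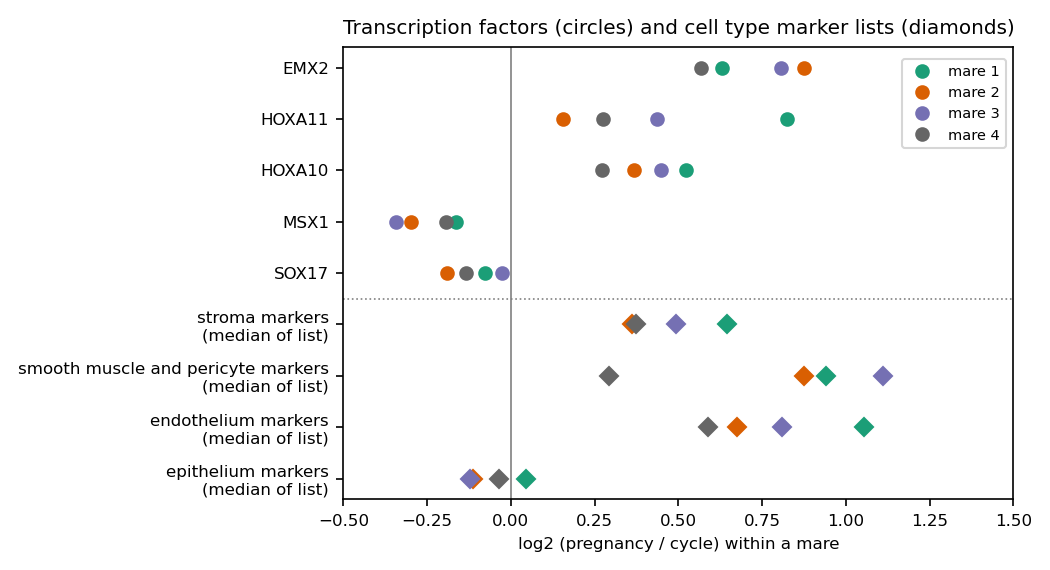
Log2 ratio of pregnancy over cycle within each mare for 5 of the factors (circles) and the median of 4 cell type marker lists (diamonds). The stroma medians lie between 0.36 and 0.64, close to HOXA10 at 0.27 to 0.52, and the epithelium medians between -0.12 and 0.04, to the right of MSX1 at -0.34 to -0.16 in each mare.

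For the 3 factors that rose, the genes with the most similar pattern over the 8 libraries were sought by the root mean square difference of log2 CPM, each gene centred on its mean, among 13164 genes with a symbol. The libraries share mares and states, so this is a description. Nearest to EMX2 were CCDC68 (difference of 0.11), MARS2, a mitochondrial methionyl-tRNA synthetase (0.15), and EEPD1 (0.16), while EMX2 itself varied by 0.50 around its mean. Nearest to HOXA10 were PMM1, a phosphomannomutase (0.09), THRB, a thyroid hormone receptor (0.11), and FAM193B (0.12), with a variation of 0.38 for HOXA10 itself. Nearest to HOXA11 were JPH4, a junctophilin (0.09), PMP22, a peripheral myelin protein (0.10), and FDFT1, the squalene synthase (0.11), with 0.28 for HOXA11 itself. No HOX gene was among these 9. EEPD1, FDFT1, JPH4 and THRB did not themselves pass in edgeR's test of pregnancy (adjusted p of 0.0545 to 0.172), and EEPD1 had only 0.72 and 1.36 CPM in the cycle and in pregnancy.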

How the data were processed

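Poly(A) RNA libraries were sequenced from 4 pregnant and 4 cyclic biopsies. The authors deposited raw read counts per NCBI Gene ID and a table of scaled signal values for 14037 genes. Per the submitters' processing notes, reads passed through Trimmomatic 0.32.2 and HISAT2 2.0.3. Not given in the sources used here were build, annotation and counting tool. The signal values equal TMM-scaled CPM within a relative tolerance of 1e-06 (100% of values) and served 1 alternative, limma on log2(value + 0.5). Symbols came from a RefSeq table of the assembly TB-T2T, which held 21420 of the 24942 IDs. No column was left unused (0).

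The deposited counts went into edgeR 4.0.16 (R 4.3.3): filterByExpr (minimum count 10, leaving 15342 genes with 99.9% of counts), TMM scaling, robust quasi-likelihood test, mare as block. The series' design text states that every mare gave both samples. Same-mare libraries deviated together (correlations across genes of 0.38 to 0.54, others at most -0.02). Each gene was first centred within each group, so positive same-mare values push the others below 0. SE is the log2 fold change over the square root of F. Within-mare ratios use log2 CPM with a prior count of 2. Alternatives used DESeq2 1.42.0, limma 3.58.1, other scalings and filters, no block, and each mare left out. The test was also run on counts simulated from the model fitted to these data, with changes planted. That run checks the code and cannot show how the calls hold in real pairs.

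Within a group, every pair of libraries differed by more than sampling noise (lowest chi-square per degree of freedom 24.6). A count of 0 allows 3 counts, 0.18 to 0.306 CPM per library, for counting error only. The list and the other gene lists were chosen with earlier results of these data known. Named genes were every gene of the list, PGR, ESR1, IHH, up to 4 called genes per list by p (plus the 2 most abundant where fewer than 2 were called) and the 3 most similar genes per called factor; others are marked as chosen after their values were seen. Results for 1 of the lists are not reported here.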

Additional observations from a re-analysis of the deposited data

Results flagged for a closer look

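In a group of 4, a library is singled out where its gap to the nearest other is a share of the group's range above Dixon's critical value. Of 18 groups looked at (9 factors in 2 states) 3 had such a library, and chance gives about 1 in 20. EMX2 had 15.0 CPM in the cyclic library of mare 3, where the next value was 9.40 CPM. FOXA2 had 6.03 CPM in the cyclic library of mare 2, where the next was 3.99 CPM. MSX2 had 69.9 CPM in the cyclic library of mare 4, where the next was 62.3 CPM. For EMX2 and MSX2 the same mare was also the highest in pregnancy, at 26.3 and 67.1 CPM, and for FOXA2 mare 2 was the lowest in pregnancy, at 3.61 CPM.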

How the results depend on the processing

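Without the mare as replicate block the number of changed genes was 389 in place of 2565, of changed factors 0 in place of 3 (edgeR, with 3 higher and 1 lower at an unadjusted p under 0.05), and of changed genes over the 9 pathway and transcription factor lists 9 in place of 47. Leaving out each mare in turn gave 1266 to 2057 changed genes, 1 to 3 changed factors, 25 to 35 changed list genes and 0 to 2 factors differing between mares, with 0 also at an unadjusted p without mare 3. The cause was not tested, beyond 3 mares giving fewer libraries. Library totals in place of TMM moved the share of higher calls to 62.1%, with 1416 higher and 864 lower genes against 1309 and 1256. The sign turned for FOXA2 without mare 2 (log2 fold changes of -0.19 to 0.18 over the mares left out) and for MSX2 with library totals (0.00039), neither called in any alternative. Of 36 called genes followed, 8 passed in all alternatives they entered, and 27 lost the call without the block. Depth limits FOXA2 most, at 42 counts in the shallowest library.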
